A study of Sus scrofa with 12 samples.

Results

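The urea cycle and the enzymes and carriers around it were examined in the liver of 12 pigs. The genes were looked up by name, as those of ammonia disposal. Of 10 gene symbols looked for in the annotation of the array, 7 were found, each with 1 transcript cluster, a set of probes for 1 transcript. These were NAGS, OTC, ASS1, ASL, SLC25A15, SLC25A13 and GLUL, out of 25385 clusters on the array, 14430 of which had a gene symbol. The symbols CPS1, ARG1 and GLS2 were not among the symbols. In their place 3 clusters were found that the annotation describes as the ammonia-dependent carbamoyl-phosphate synthase (LOC100737476), as arginase-1-like (LOC106504070) and as the liver isoform of glutaminase (LOC100737630). They were added after the table had been seen, they are not counted among the 7 genes, and they are called by their LOC names here.

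The pigs were male crossbreds of Pietrain with a cross of German Landrace and German Edelschwein, and 5 weeks old at the start. Sodium pivalate at 30 mg per kg of body weight, dissolved in a solution of NaHCO3, was given by mouth on each of 28 days to 6 pigs (group PIV), and another 6 (group CON) had only the solution. All ate the same nutrient-adequate diets, which were low in carnitine, and were killed 2 h after a meal, so all values are from the fed state. Pivalate binds carnitine and takes it out of the body with the urine, and the question was whether the liver transcriptome differs when carnitine is low.

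Ammonia set free from amino acids is toxic, and the liver removes it by 2 routes. In the hepatocytes around the portal vein, ammonia from the portal blood and from glutaminase enters the mitochondria, where carbamoyl-phosphate synthase joins it to bicarbonate, and the urea cycle turns it into urea. What escapes is bound to glutamate by glutamine synthetase, an enzyme held by a narrow rim of hepatocytes around the central vein. The synthase runs only in the presence of N-acetylglutamate. In mice that lack the carnitine transporter, ammonia in the blood is raised and genes of the urea cycle are low. These points are background and were not measured here.

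Median log2 signals of the arrays lay between 4.75 and 4.88, and correlations between arrays lay between 0.977 and 0.991. Array weights, estimated from how well an array fits its group, lay between 0.518 and 1.17 in group CON and between 0.983 and 1.35 in group PIV. CON pig K22 had the lowest weight and lay farthest from 0 on the first principal component (36.01). CON pig K42 came next in both, with a weight of 0.664 and a value of −24.24 on the component. All 7 genes and all 3 LOC clusters had a log2 signal of at least 5 in all 12 pigs. Of 14 hepatocyte markers 12 were measured, and all 12 had a signal of at least 5 in 6 pigs or more, with a mean over the list between 11.88 and 12.01 in every pig. Of 8 measured erythroid markers 0 reached that signal. The sample titles number the arrays in the order of the groups, 1 to 6 for group CON and 7 to 12 for group PIV. Whether these numbers give an order of processing is not stated. If they do, that order cannot be told apart from the group. Pigs were kept in pairs and their pens are not given, so p-values taken over single pigs may be too small.

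None of the 7 genes differed between group PIV and group CON at the filter, a fold change (FC) of more than 1.2 up or down together with a limma p below 0.05 before adjustment. Of all clusters 462 passed the filter, or 1.82%, and of clusters with a symbol and a signal of at least 5 in 6 pigs 85 of 7208 passed, or 1.18%, so 0 of 7 is near what the background gives and is no result about these genes. With limma, 0 of the 7 had an unadjusted p under 0.05, and with the methods' t-test 0 of the 7 passed as well. After adjustment 0 clusters of the whole array passed, the lowest adjusted p from limma being 0.788. An unadjusted limma p under 0.05 was found for 921 clusters, or 3.63%, where chance alone gives about 1 in 20. The groups overlapped for all 7 genes, and over the whole array they did not overlap for 0.158% of the clusters. By their means 2 of the 7 lay higher in group PIV and 5 lower, and the median log2 FC was −0.07 against 0.01 for all clusters. For clusters with a symbol and a signal of at least 5 in 6 pigs it was −0.01. A missed threshold does not show that the groups were alike, and the confidence intervals below give what these 12 arrays leave possible.

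**Figure D1:**
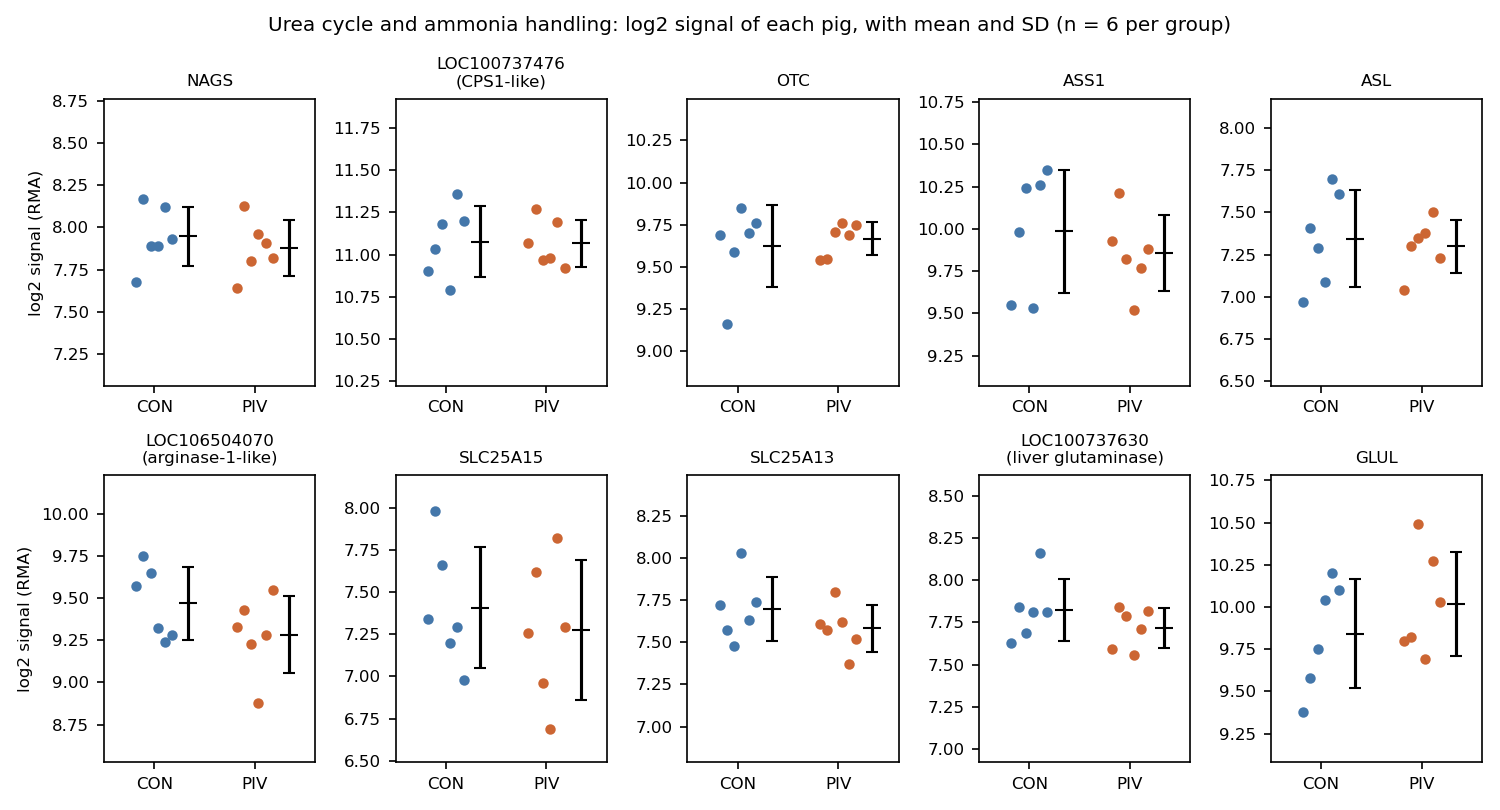
Log2 signal (RMA) of each pig for the 7 genes and the 3 LOC clusters, group CON in blue and group PIV in orange, with mean and SD beside the points (n = 6 per group). Each panel spans the same height on the log2 scale, and the points of the groups overlap in every panel.

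The first genes act inside the mitochondria, at the entry of ammonia into the cycle. NAGS encodes N-acetylglutamate synthase, which makes the activator of the first step, and lies on chromosome 12 from 17176856 to 17181061 on the plus strand. Positions are given as in the annotation file of the array, and its build was not stated in the labels or methods. In group CON its log2 signal was 7.68 at the lowest, 7.91 at the median and 8.17 at the highest, and in group PIV 7.64, 7.86 and 8.13. The ranges nearly coincided, with PIV pig P10 lowest and CON pig K3 highest of all. The mean was 7.95 ± 0.18 in group CON and 7.88 ± 0.17 in group PIV (SD, n = 6 each), with a log2 FC of −0.07 (SE 0.10; exact permutation test, two-sided, p = 0.472). The 95% confidence interval from limma ran from a FC of −1.22 to 1.10, negative FCs standing for lower values in group PIV.

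LOC100737476, described as the ammonia-dependent carbamoyl-phosphate synthase that fixes ammonia in the first step of the cycle, lies on chromosome 15 from 106465468 to 106551048. Only 4 of the 32 probes of this cluster are assigned to the mRNA it is named after, so its name is less certain than those of the 7 genes. Pigs of group CON ranged from 10.79 to 11.36 with a median of 11.11, and pigs of group PIV from 10.92 to 11.27 with a median of 11.03. The values of group PIV all lay inside the range of group CON. Its log2 FC was the nearest to 0 of the 10 clusters, at −0.01 (SE 0.10; exact permutation test, p = 0.929), with an interval from a FC of −1.17 to 1.16.

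OTC, ornithine carbamoyltransferase, joins carbamoyl phosphate to ornithine and gives citrulline. It lies on chromosome X from 33771381 to 33840748 on the plus strand. Its lowest, median and highest log2 signals were 9.16, 9.70 and 9.85 in group CON and 9.54, 9.70 and 9.76 in group PIV. CON pig K3 was lowest of all 12 and stood 0.68 below CON pig K22, the highest, while the medians of the groups were the same. The means were 9.63 ± 0.24 (SD, n = 6) and 9.67 ± 0.10 (SD, n = 6), a log2 FC of 0.04 (SE 0.10; exact permutation test, p = 0.786). The interval ran from a FC of −1.13 to 1.20, and without K3 the log2 FC turned to −0.05.

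In the cytosol citrulline is joined to aspartate, and the product is split. ASS1, argininosuccinate synthase, is placed on chromosome 1 from 285639680 to 285695239 on the plus strand. Among pigs of group CON the log2 signal was lowest at 9.53, had its median at 10.11 and was highest at 10.35. Among pigs of group PIV these values were 9.52, 9.85 and 10.21. In group CON, 3 pigs were above every pig of group PIV, but K1 and K22 lay at the lower end together with PIV pig P30. The log2 FC was −0.13 (SE 0.15; exact permutation test, p = 0.459), from 9.98 ± 0.37 (SD, n = 6) to 9.86 ± 0.22 (SD, n = 6), with an interval from a FC of −1.37 to 1.14.

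ASL, argininosuccinate lyase, releases arginine and fumarate and lies on chromosome 3 from 15149285 to 15158639 on the plus strand. Group CON spread from 6.97 to 7.70 around a median of 7.35, and group PIV from 7.04 to 7.50 around a median of 7.32. Both the highest pig, K23, and the lowest, K1, belonged to group CON. Its log2 FC was −0.04 (SE 0.12; exact permutation test, p = 0.742) and turned to 0.03 without CON pig K23, to 0.01 without CON pig K42 and to 0.01 without PIV pig P10. The means were 7.34 ± 0.28 and 7.30 ± 0.16 (SD, n = 6 each), with an interval from a FC of −1.23 to 1.16.

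Arginase closes the cycle by splitting arginine into urea and ornithine. The cluster described as arginase-1-like, LOC106504070, lies on chromosome 1 from 33295233 to 33296874, and all 24 of its probes are assigned to the mRNA it is named after. It had lowest, median and highest log2 signals of 9.24, 9.45 and 9.75 in group CON and 8.88, 9.31 and 9.55 in group PIV. Of group CON, 3 pigs (K1, K3 and K4) lay above all pigs of group PIV, and PIV pigs P29 and P30 lay under the lowest CON pig. It had the largest difference of the 10 clusters, from 9.47 ± 0.21 to 9.28 ± 0.23 (SD, n = 6 each). The log2 FC was −0.18 (SE 0.12; exact permutation test, p = 0.190), with an interval from a FC of −1.35 to 1.05, and it did not pass the filter.

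The cycle also needs carriers that move its intermediates through the inner mitochondrial membrane. SLC25A15 exchanges ornithine for citrulline, and it lies on chromosome 11 from 15446763 to 15490831 on the plus strand. Its log2 signal was 6.98 at the lowest, 7.31 at the median and 7.98 at the highest in group CON, and 6.69, 7.27 and 7.82 in group PIV. No other of the 10 clusters varied as much between pigs, since CON pig K3 and PIV pig P30 were 1.29 apart, a 2.45-fold difference. The means of 7.41 ± 0.36 and 7.27 ± 0.42 (SD, n = 6 each) differed by a log2 FC of −0.14 (SE 0.19; exact permutation test, p = 0.537). The interval, from a FC of −1.45 to 1.20, was the widest of the 10.

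SLC25A13, also called citrin, exports aspartate to the cytosol for argininosuccinate synthase. It lies on chromosome 9 from 70988862 to 71236251 on the minus strand. In group CON the values ran from 7.48 to 8.03 with a median of 7.67, and in group PIV from 7.37 to 7.80 with a median of 7.59. CON pig K22 was highest and PIV pig P31 lowest, and the other 10 pigs lay between 7.48 and 7.80. The log2 FC was −0.11 (SE 0.10; exact permutation test, p = 0.286), from 7.69 ± 0.19 to 7.58 ± 0.14 (SD, n = 6 each), and the interval ran from a FC of −1.25 to 1.07.

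Glutamine is split at the portal side and made at the central vein. LOC100737630, the cluster described as the liver isoform of glutaminase, which feeds ammonia to the cycle, is placed on chromosome 5 from 20795624 to 20994823. Of its 32 probes, 10 and 19 are assigned to the mRNA entries it is listed with. Group CON lay between 7.63 and 8.16 with a median of 7.81, and group PIV between 7.56 and 7.84 with a median of 7.75. CON pig K23 was the highest by a margin, whereas P10 and P30 had values under those of all CON pigs. The log2 FC was −0.11 (SE 0.09; exact permutation test, p = 0.273), with an interval from a FC of −1.23 to 1.07.

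GLUL encodes glutamine synthetase, which binds ammonia to glutamate, and lies on chromosome 9 from 116109982 to 116119502 on the minus strand. Its lowest, median and highest log2 signals were 9.38, 9.89 and 10.20 in group CON and 9.69, 9.92 and 10.49 in group PIV. At the upper end PIV pigs P29 (10.49) and P31 (10.27) were above all of group CON, and at the lower end CON pigs K1 (9.38) and K3 (9.58) were below all of group PIV. The other 8 pigs were mixed. GLUL had the largest positive log2 FC of the 10 clusters, 0.17 (SE 0.16; exact permutation test, p = 0.361), from 9.84 ± 0.32 to 10.01 ± 0.31 (SD, n = 6 each), with an interval from a FC of −1.12 to 1.42. Since few hepatocytes hold this enzyme, a signal in whole liver can differ through the number of such cells or through the RNA of each, and these cannot be told apart.

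All 7 intervals lay inside a FC of 1.5 in either direction, and so did those of the 3 LOC clusters. Only 1 of the 7, that of OTC, lay inside a FC of 1.2, as the plot of log2 FCs with their intervals shows. For the other 6 genes a change past the FC of the filter could thus not be told from no change with these arrays. Over all 12 pigs the difference between the highest and the lowest ranged from 1.44-fold for NAGS to 2.45-fold for SLC25A15, with 1.77-fold for ASS1 and 2.16-fold for GLUL.

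**Figure D2:**
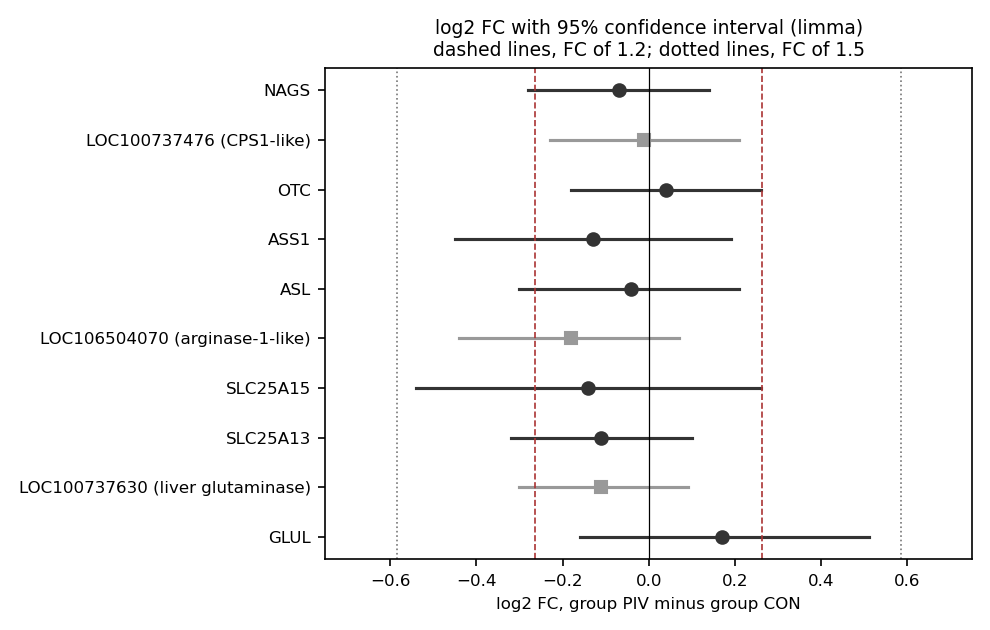
Log2 FC of group PIV minus group CON (horizontal axis) with the 95% confidence interval from limma, n = 6 pigs per group. Circles are the 7 genes and squares the 3 LOC clusters. All intervals cross 0 and stay inside the dotted lines at a FC of 1.5.

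The spread within groups was wide for some of these genes against other liver transcripts. The SD within groups was 0.388 for SLC25A15, larger than that of 96.6% of the 11789 clusters with a signal of at least 5 in 6 pigs. For GLUL it was 0.317 (larger than 93.4%) and for ASS1 0.303 (larger than 92.2%). The SDs of ASL (0.229), OTC (0.185) and NAGS (0.171) were larger than those of 79.8%, 61.5% and 53.2%. SLC25A13 (0.167) lay at the middle, larger than 50.8%, the median of these clusters being 0.166. These shares describe the arrays, and the genes with the wider spread are those for which a given FC was harder to detect.

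Single pigs recurred at the ends of these ranges. CON pig K3 was lowest for OTC and highest for NAGS, SLC25A15 and LOC106504070. CON pig K23 was highest for ASL, LOC100737476 and LOC100737630. PIV pig P30 was lowest for ASS1, SLC25A15, LOC106504070 and LOC100737630, and CON pig K1 was lowest for ASL and GLUL. CON pig K22, whose array had the lowest weight, was highest for OTC and SLC25A13 and lowest for LOC100737476. The part of array quality in these values was not tested.

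**Figure D3:**
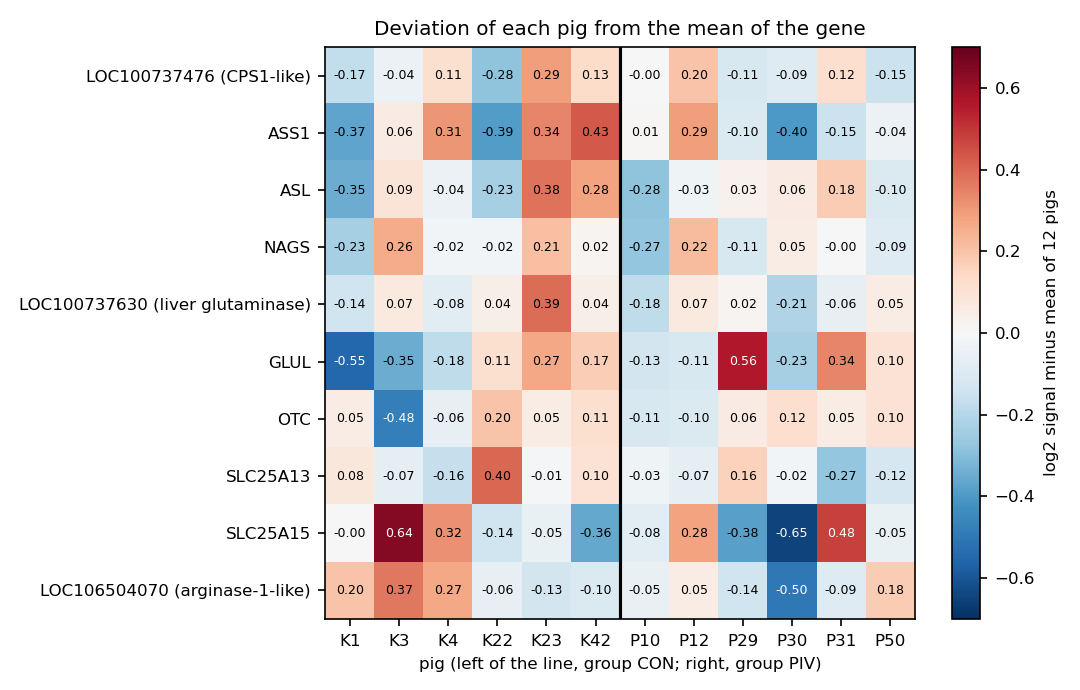
Deviation of the log2 signal of each pig (columns, group CON left of the line and group PIV right of it) from the mean of 12 pigs, for the 7 genes and the 3 LOC clusters (rows). Red is above and blue below the mean. The ornithine carrier SLC25A15 and LOC106504070 are high in K3 and low in P30, and OTC is low in K3.

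Whether the genes rose and fell together from pig to pig was examined with the 21 pairs of the 7 genes. Pearson's r lay between −0.68 and 0.67, above 0 for 12 pairs and below 0 for 9, and 0 pairs passed after adjustment over the 21. The strongest relation was an inverse one, between OTC and the carrier SLC25A15 that supplies its ornithine (r = −0.68, permutation test, p = 0.0109, adjusted p = 0.183; Spearman's rho = −0.75, permutation p = 0.00733, adjusted p = 0.0951). It was −0.91 in group CON and −0.45 in group PIV, −0.61 without K3 and P10, the pigs farthest from the median of OTC, and −0.51 without K3 alone. Among clusters with a signal of at least 5 in 6 pigs, 1.85% had an r at least as low with OTC.

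The other pair with an unadjusted p under 0.05 was ASL with NAGS (r = 0.67, permutation test, p = 0.0174, adjusted p = 0.183; rho = 0.72, permutation p = 0.0112, adjusted p = 0.0951). Its r was 0.75 in group CON and 0.57 in group PIV, and 0.47 without K23 and K1, the pigs farthest from the median of ASL. ASS1 and ASL, which act one after the other, had an r of 0.56 (permutation test, p = 0.0583, adjusted p = 0.375; rho = 0.44, permutation p = 0.156, adjusted p = 0.544). This r was 0.88 in group CON and −0.40 in group PIV, and 0.58 without K42 and P30. Whether r differed between the groups was not tested. Subtracting the group means left r of these 3 pairs at −0.67, 0.67 and 0.56.

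When the 3 LOC clusters were included, which made 45 pairs and was decided after the values had been seen, the highest r was that of ASS1 with LOC100737476. These clusters, both named for enzymes that bind nitrogen, had an r of 0.81 (permutation test, p = 0.00157, adjusted p = 0.0706; rho = 0.76, permutation p = 0.00607, adjusted p = 0.122). It was 0.93 in group CON, 0.58 in group PIV and 0.84 without K42 and P30, and 0.144% of the clusters with a signal of at least 5 in 6 pigs had an r as high with ASS1. SLC25A15 and LOC106504070, the carrier that takes up ornithine and the cluster named for the enzyme that makes it, followed with 0.75 (permutation test, p = 0.00491, adjusted p = 0.110; rho = 0.73, permutation p = 0.00917, adjusted p = 0.122). Their r was 0.87 in group CON and 0.65 in group PIV but fell to 0.40 without K3 and P30, so it rests in part on these pigs. LOC100737476 also had an r of 0.69 with ASL (permutation test, p = 0.0132, adjusted p = 0.149; rho = 0.67, permutation p = 0.0201, adjusted p = 0.151). That r was 0.87 in group CON, 0.21 in group PIV and 0.50 without K23 and K1. With GLUL, r was 0.21 for LOC100737476 (permutation test, p = 0.512), 0.47 in group CON and −0.16 in group PIV. For LOC100737630 with GLUL it was 0.44 (permutation test, p = 0.151), 0.70 in group CON and 0.47 in group PIV. Of the 45 pairs 0 passed after adjustment.

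**Figure D4:**
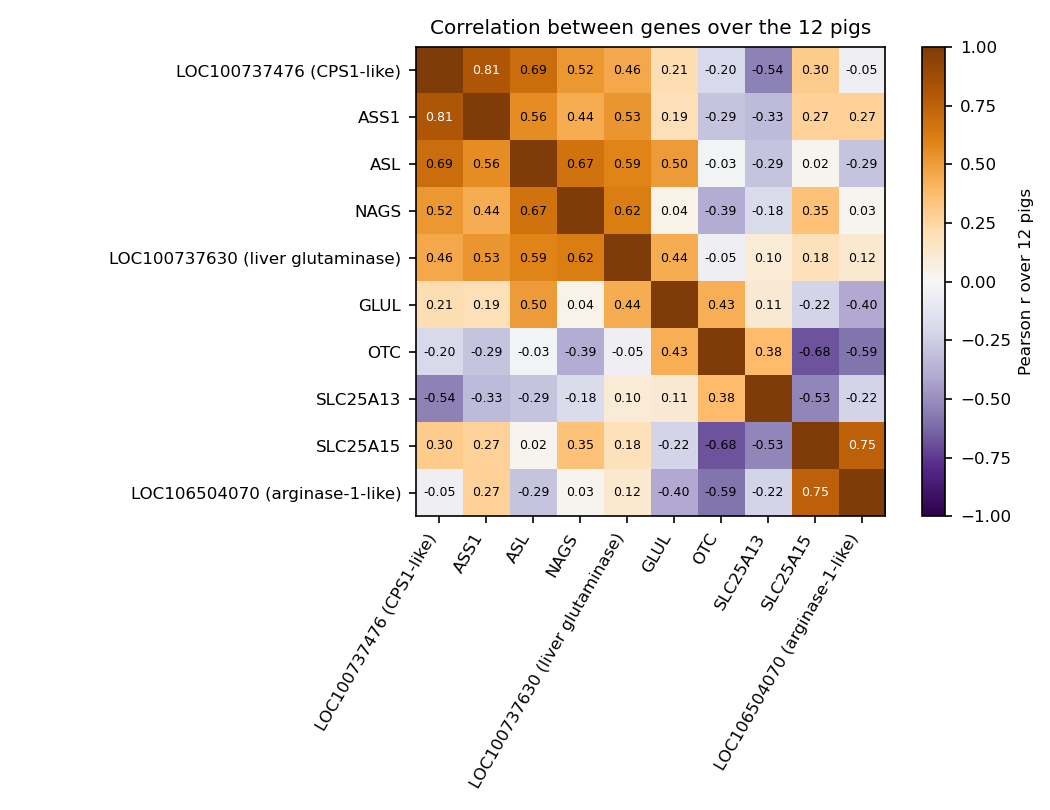
Pearson's r between the 7 genes and the 3 LOC clusters over the 12 pigs, orange above 0 and purple below 0. LOC100737476, ASS1, ASL, NAGS and LOC100737630 have positive r with each other, between 0.44 and 0.81, and OTC has negative r with SLC25A15 and LOC106504070. Within group CON, r between the first-named clusters lies between 0.43 and 0.93, and within group PIV between −0.40 and 0.65. For LOC100737476 with LOC100737630, r falls from 0.46 to 0.08 without K23. Whether r differed between the groups was not tested.

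Genes whose values were most like those of single members over the 12 pigs were looked up among 7207 clusters with 1 symbol and a signal of at least 5 in 6 pigs. For GLUL they were LOC100516656, annotated as the mitochondrial 3-hydroxyisobutyrate dehydrogenase of valine breakdown (r = 0.87), NPFF, a neuropeptide precursor (r = 0.86), and METTL13, a methyltransferase (r = 0.83). For ASS1 and LOC100737476 they were looked up after their values had been seen. For ASS1 they were CBY3 (r = 0.89), SCRT1, a zinc finger gene (r = 0.88), and SCARF2, a scavenger receptor (r = 0.83). For LOC100737476 they were RIMKLA, an enzyme that joins glutamate to N-acetylaspartate (r = 0.84), GOT1, the cytosolic aspartate transaminase (r = 0.84), and LOC100522407, annotated as a leukocyte receptor (r = 0.84). These r describe 12 pigs and were picked as the highest of all candidates. NPFF, METTL13, SCRT1 and SCARF2 were dim, with group means between 5.04 and 5.18, just above the minimum signal of 5.

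Beyond the cycle itself, 85 related genes had been listed, of which 72 were measured. They comprise other enzymes of ammonia, glutamate and ornithine, transporters, regulators, and genes that respond to glucagon or glucocorticoids, and 0 of the 72 passed the filter, with a median log2 FC of −0.01. Set against the 1.82% of all clusters that passed, 0 of 72 is no result about these genes. Of 25 other enzymes measured, 16 were lower and 9 higher by their means, with a median log2 FC of −0.08. GPT2, the mitochondrial alanine transaminase, was at 7.37 ± 0.66 in group CON and 6.90 ± 0.68 in group PIV (SD, n = 6 each), and its log2 FC was −0.47 with a SE of 0.31 (p = 0.238, exact permutation test). It varied widely, from 5.76 in PIV pig P50 to 8.47 in CON pig K23. PPAT, which takes ammonia from glutamine for purines, had a log2 FC of −0.22 (SE 0.12; exact permutation test, p = 0.130), and HAL, which frees ammonia from histidine, a log2 FC of −0.24 (SE 0.17; exact permutation test, p = 0.262). GLUD1, glutamate dehydrogenase, the main source of free ammonia in mitochondria, was at 10.55 ± 0.25 and 10.59 ± 0.07 (SD, n = 6 each; exact permutation test, p = 0.699).

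Of 22 transporters, 9 were higher and 13 lower by their means, with a median log2 FC of −0.03. SLC1A4, a carrier of neutral amino acids, had the largest difference, with 5.48 ± 0.32 in CON and 5.87 ± 0.54 in PIV (SD, n = 6 each). Its log2 FC was 0.39 with a SE of 0.21 (p = 0.152, exact permutation test), and 4 PIV pigs exceeded the highest CON pig while 1 was below the lowest. It passed the filter when CON pig K22, PIV pig P10 or PIV pig P50 was left out, with log2 FCs of 0.47, 0.55 and 0.47. SLC38A1, a glutamine carrier at a dim signal, had a log2 FC of −0.25 (SE 0.16; exact permutation test, p = 0.195), and SLC14A1, a urea transporter that was also dim, a log2 FC of 0.17 (SE 0.10; exact permutation test, p = 0.132). SLC38A3, the glutamine carrier of the system N, was at 9.97 ± 0.18 and 9.94 ± 0.14, and AQP9, a channel for urea and glycerol, at 10.28 ± 0.16 and 10.23 ± 0.07 (SD, n = 6 each). RHBG, an ammonia channel of the perivenous hepatocytes, was at 6.27 ± 0.37 and 6.08 ± 0.63 (SD, n = 6 each; exact permutation test, p = 0.628), with PIV pig P50 at 4.84 and the other PIV pigs between 6.05 and 6.54.

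Of 17 regulators, 9 were higher and 8 lower by their means. SIRT3, a mitochondrial deacetylase, had the smallest p of these, with a log2 FC of 0.13 (SE 0.08; exact permutation test, p = 0.0563) and 4 PIV pigs over the highest CON pig. FOXA2 and FOXA1, transcription factors of hepatocytes, had log2 FCs of −0.19 (SE 0.12; exact permutation test, p = 0.182) and −0.13 (SE 0.12; exact permutation test, p = 0.329). HNF4A, a nuclear receptor on which urea cycle genes depend in mice, was at 8.41 ± 0.25 and 8.36 ± 0.12, and CEBPA at 7.43 ± 0.13 and 7.53 ± 0.30 (SD, n = 6 each). Among 15 genes that respond to glucagon or glucocorticoids, PCK1, the gene of gluconeogenesis, had the same mean in both groups, 7.97, but ranged over 2.31 on the log2 scale. IGFBP1, a binding protein that insulin represses, lay between 5.44 in CON pig K22 and 10.46 in PIV pig P10 (log2 FC 0.98, SE 0.83; exact permutation test, p = 0.344). TSC22D3, a glucocorticoid target, had a log2 FC of 0.17 from a cluster marked for cross-hybridisation, and a second cluster gave the same value, so it is uncertain.

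Since glutamine synthetase and the urea cycle lie in different zones of the lobule, genes of both zones were compared. In the perivenous list 13 of 17 measured genes were lower by their means, GLUL being among the 4 that were higher, and the median log2 FC was −0.10. None of the 17 passed the filter. LGR5, a receptor of the Wnt pathway at the central vein, had a log2 FC of −0.36 (SE 0.20; exact permutation test, p = 0.210), with PIV pigs P12 (4.79) and P50 (4.36) below all other pigs. This cluster has 10 probes, and a second LGR5 cluster, at a mean signal of 4.41, had a log2 FC of −0.18. The log2 FC of ZNRF3 was −0.17 (SE 0.10; exact permutation test, p = 0.110) and that of SP5, which was dim, −0.20 (SE 0.09; exact permutation test, p = 0.0541). CYP2E1 was at 11.80 ± 0.13 and 11.84 ± 0.09 (SD, n = 6 each). In the periportal list 8 of 14 genes were lower by their means, with a median log2 FC of −0.01 and 0 past the filter. CPS1, ARG1 and GLS2 were listed too but were not found and are not among the 14. The LOC clusters described as these enzymes had log2 FCs of −0.01, −0.18 and −0.11. HSD17B13, a protein of lipid droplets, had a log2 FC of 0.24 with a SE of 0.09 (p = 0.0281, exact permutation test; adjusted p = 1 from limma). The pigs of group PIV lay between 10.79 and 11.18 and those of group CON from 10.52 upward, the highest of them (K42) being above 3 PIV pigs, so the groups overlapped. Its FC of 1.18 was below that of the filter.

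Genes of other liver cells were examined by lists. The mean log2 signal over the 9 measured stellate cell markers ranged from 6.07 to 6.63 in group CON and from 5.78 to 6.77 in group PIV, and that over the 10 Kupffer cell and macrophage markers from 7.54 to 8.02 and from 7.56 to 7.96. For the 7 cholangiocyte markers it ranged from 5.39 to 5.69 and from 5.27 to 5.68, and for the 9 endothelial markers from 7.26 to 7.41 and from 7.30 to 7.37. Of 67 measured cell type markers 2 passed the filter, where 1.82% of all clusters did. Single markers that did not pass had log2 FCs of up to 0.37 (CD2, of T cells) and 0.29 (ACTA2, of stellate cells). Others went down to −0.22 (COL1A2 and COL3A1, also of stellate cells). By their means 5 of the 9 stellate cell markers were higher and 4 lower. JCHAIN, the joining chain of antibodies made by plasma cells, was lower in group PIV (log2 FC −0.47, SE 0.13; exact permutation test, p = 0.00433). KLF1, an erythroid transcription factor at a dim signal, was higher (log2 FC 0.28, SE 0.11; exact permutation test, p = 0.0390). Neither passed after adjustment. MZB1, also of plasma cells and dim, had a log2 FC of −0.0 (exact permutation test, p = 0.981). Its cluster was marked for cross-hybridisation and a second cluster gave the same value, so it is uncertain. By their means 8 of the 12 lymphocyte and plasma cell markers were higher in group PIV and 4 lower. Of the 8 erythroid markers 3 were higher and 5 lower. The mean over the 12 lymphocyte and plasma cell markers ranged from 4.67 to 5.07 in CON and from 4.79 to 5.10 in PIV, and that over the 8 erythroid markers from 3.65 to 3.76 and from 3.48 to 3.88. KLF1 missed the filter in 4 of 12 fits that left out 1 pig (K1, K22, P31 or P50), and also with array weights and after quantile normalization again, whereas JCHAIN passed in all 12.

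**Figure D5:**
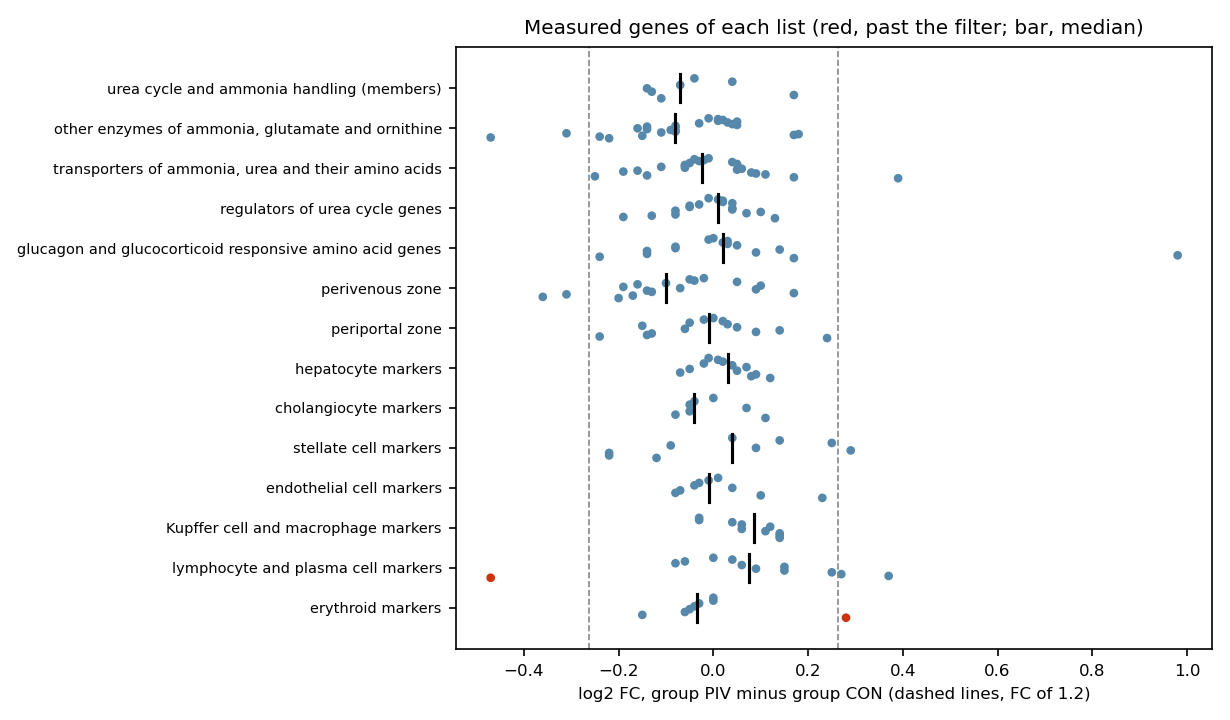
Log2 FC of group PIV minus group CON (horizontal axis) for each measured gene of 14 lists, with the median of the list as a bar and genes past the filter in red. The 7 urea cycle and ammonia genes lie between −0.14 and 0.17, and the medians of all lists lie between −0.10 and 0.09.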

How the data were processed

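Liver RNA of 12 pigs was hybridised to 1 Affymetrix Porcine Gene 1.0 array per pig. The authors corrected, normalized and summarised the probe intensities with RMA in Affymetrix Expression Console 1.4 (submitters' processing notes), and the deposited values are log2 signals, given in a workbook sheet and in a value table that differed by at most 0.0050. Normalization across arrays before deposit hides any shift common to all genes. The sheet also holds group means and the authors' own log ratio, fold change and p-value, which were not used.

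Of 25388 clusters, 3 of ribosomal RNA were left out. Genes were found by symbol, then by the symbol in the mRNA description, then, for the lists, through RefSeq gene numbers, accessions and older symbols (assembly Sscrofa11.1). The cluster with the highest mean was used. The groups were tested over all 25385 clusters in limma 3.58.1 (R 4.3.3), with Benjamini-Hochberg adjustment and the FC and p limits of the methods. For single genes the pigs were exchanged between groups in every possible way, which gives an exact permutation test (smallest possible p 0.00216, not adjusted), and correlations with 100000 permutations. Each pig was taken as independent, although pigs were kept in pairs. The number of arrays limits the precision.

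The genes and lists were chosen with earlier results of these data known. Genes given by name were the members, up to 3 genes of each related or zone list with the smallest p, all past the filter, and the genes most like GLUL. Values of CD2, ACTA2, GLUD1, SLC38A3, AQP9, RHBG, HNF4A, CEBPA, PCK1, CYP2E1, the LOC clusters and pairs with related genes were chosen after values were seen. Chosen in the same way were COL1A2, COL3A1, MZB1 and the log2 FC of OAT. The rule also asked for pairs of GLUL with CPS1 and GLS2, which were not found by symbol. Pairs of GLUL with LOC100737476 and LOC100737630 are given in their place. The scripts were tested on simulated data. No sequences were used here, and the values of 1 listed gene are not reported here.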

Additional observations from a re-analysis of the deposited data

Results flagged for a closer look

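In OTC, CON pig K3 (9.16) was separated from the other pigs of its group, at 9.59 to 9.85, by a gap of 0.626 of the range of the group, just above the 95% limit of Dixon's test. The same pig was the highest for SLC25A15, NAGS and LOC106504070. All measured genes of the lists but 1, the LOC clusters and the genes most like single members were examined in the same way, 176 genes in 352 groups of 6 pigs. Of these groups 29 had such a pig, where chance alone gives about 1 in 20, and genes of a list are not independent.

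Among related and zone genes in group PIV, P12 was high for OAT (7.34 against 5.66 to 6.06). The other 5 PIV pigs lay below the lowest CON pig for OAT (6.10), with a log2 FC of −0.31 over all pigs (exact permutation test, p = 0.312). P10 was high for SLC7A7 (7.83 against 7.32 to 7.49) and RHCG (4.39 against 4.18 to 4.22). P50 was low for RHBG (4.84 against 6.05 to 6.54), P30 for AQP8 (3.62 against 3.99 to 4.21) and P31 for TNFRSF19 (5.55 against 6.07 to 6.18). In group CON, K22 was high for AGMAT (9.98 against 9.43 to 9.55) and PRKACA (6.97 against 6.59 to 6.72), and K23 for CYP2E1 (12.06 against 11.72 to 11.78) and FOXA3 (6.29 against 6.08 to 6.15). K3 was low for UROC1 (7.70 against 7.85 to 7.90), and K42 was low for NR3C1 (6.26 against 6.41 to 6.47).

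Among cell type markers, PIV pig P50 was low for C1QC (8.37 against 8.89 to 9.06), C1QB (9.25 against 9.68 to 9.88) and VSIG4 (6.47 against 6.71 to 6.76), which are macrophage genes, and high for STAB2 (8.98 against 8.48 to 8.62). P12 was low for ALB (12.82 against 12.88 to 12.91) and PECAM1 (6.74 against 6.94 to 7.01), P10 was low for FCN2 (6.10 against 6.57 to 6.77), and P30 was low for DES (4.73 against 4.97 to 5.07) and high for CLEC4G (7.91 against 7.50 to 7.61). CON pig K3 was high for CLEC4G (7.92 against 7.52 to 7.66), and K22 was high for LUM (5.43 against 3.72 to 4.32) and low for HBE1 (3.65 against 4.09 to 4.28). K42 was high for EPB42 (4.29 against 3.75 to 3.92) and K23 low for SLC4A1 (3.83 against 4.17 to 4.25). Of the genes most like ASS1, SCRT1 (5.05 against 5.16 to 5.18) and SCARF2 (4.77 against 5.08 to 5.27) were low in P30.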

How the results depend on the processing

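Of the 7 genes 0 passed the filter under any alternative tried, that is, robust estimation with a trend in the variance, the methods' t-test, weighted arrays, a minimum signal, quantile normalization again, equal array medians, the value table, linear means, no FC minimum and leaving out each pig, and 0 of the 10 clusters passed when the LOC clusters were added. Linear means and no FC minimum kept the p of the main fit. As that p was under 0.05 for 0 of the 7, these settings could not have let a gene pass. Of 200 alternative log2 FCs of the 10 clusters, 189 kept their direction. Those that turned were near 0, with OTC between −0.05 and 0.08 and ASL between −0.12 and 0.03 when 1 pig was left out, and LOC100737476 between −0.07 and 0.05 and at 0.01 after quantile normalization again. Of all clusters 300 passed with the methods' t-test, 161 with a minimum signal, 921 without a FC minimum, and 427 to 705 when 1 pig was left out (705 without CON pig K42). Of the related genes 1 (SLC38A1) passed with array weights, and 0 to 3 when 1 pig was left out. These were PPAT without K4, SLC1A4, HAL and SLC38A1 without K22, CA2, ASNS and ALDH4A1 without K23, SLC38A1 without K42, SLC1A4 without P10 or P50, and OAT without P12, and the cause was not tested. No pair of members passed after adjustment under any alternative. Each of the 7 genes had 1 cluster, so no second cluster could be tried.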

Other observations

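Pairs of the 10 clusters with the 72 related genes, 720 in all, were examined after their values had been seen, and 0 passed after adjustment. The lowest adjusted p was that of OTC with ARG2, the arginase of mitochondria outside the urea cycle, which was dim here (r = −0.85, permutation test, p = 7e-05, adjusted p = 0.0504; rho = −0.79, permutation p = 0.00331, adjusted p = 0.397). It was −0.92 in group CON, −0.87 in group PIV and −0.78 without K3 and P10. ARG2 was highest in K3 (5.66) and lowest in P30 (3.76). ASL with GOT1, the transaminase that makes aspartate in the cytosol, had an r of 0.85 (permutation test, p = 0.00022, adjusted p = 0.0648; rho = 0.76, permutation p = 0.00614, adjusted p = 0.424), 0.93 in group CON and 0.52 in group PIV, and 0.69 without K23 and K1. GOT1 had an r of 0.84 with LOC100737476 (permutation test, p = 0.00042, adjusted p = 0.0756; rho = 0.90, permutation p = 0.00019, adjusted p = 0.137) and of 0.77 with ASS1 (permutation test, p = 0.00179, adjusted p = 0.256; rho = 0.80, permutation p = 0.00292, adjusted p = 0.397), and these were 0.77 without K23 and K22 and 0.80 without K42 and P30. CON pig K23 was highest for GOT1 (8.46), ASL and LOC100737476 and K1 lowest for GOT1 (7.45) and ASL. SLC25A13 had an r of −0.85 with TDO2, the first enzyme of tryptophan breakdown (permutation test, p = 0.00027, adjusted p = 0.0648; rho = −0.74, permutation p = 0.00759, adjusted p = 0.424), which was −0.66 without K22 and P31. GLUL had its highest r in size among these genes with GOT2, the mitochondrial aspartate transaminase (r = 0.77, permutation test, p = 0.00294, adjusted p = 0.256; rho = 0.76, permutation p = 0.00596, adjusted p = 0.424), with 0.77 in group CON, 0.88 in group PIV and 0.78 without P29 and K1.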
